A study of Mus musculus with 12 samples.

Results

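Skeletal muscle loses mass when its proteins are broken down faster than they are made, and a small set of genes is used to follow that state. The 9 genes described here are the 4 forkhead box O (FoxO) transcription factors Foxo1, Foxo3, Foxo4 and Foxo6, the 4 ubiquitin ligase genes Fbxo32, Trim63, Fbxo30 and Fbxo21, and Klf15, taken by gene symbol from a table of 15113 genes. Their mRNA was measured in fully differentiated myotubes of the mouse line C2C12, whose myoblasts fuse into multinucleated fibers once serum is reduced. The myotubes received 20 μM BAM15, a small molecule that uncouples mitochondrial respiration from ATP synthesis, or vehicle for 16 h, with BAM15 dissolved in DMSO. Each condition had 6 libraries. All libraries came from 1 cell line with no other genotype, and the sources do not say whether the libraries of a condition came from separate cultures, so p-values measure the spread between these libraries, which may be technical.

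FoxO factors are held in the cytosol when insulin signaling through AKT phosphorylates them, and they enter the nucleus and activate transcription when that signal falls. Among their targets in muscle are Fbxo32 (atrogin-1, also called MAFbx) and Trim63 (MuRF1), the ubiquitin ligases most often used as markers of atrophy, together with Fbxo30 (MUSA1) and Fbxo21 (SMART), which are F-box subunits of SCF ligases as Fbxo32 is. KLF15 is a Krüppel-like factor that glucocorticoids induce in muscle and that promotes the catabolism of amino acids.

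The promoters of Trim63, Klf15 and Fbxo30 are shown because these 3 genes had higher counts with BAM15 and because their sequences differ in kind. Foxo3 also had higher counts with BAM15, but its promoter sequence is not printed. Each line gives the strand of the gene 5′ to 3′, from 250 bases before the annotated start to 50 bases after it (RefSeq, GRCm38.p6), and capitals mark every match of 7 short motifs searched on both strands. Trim63 lies on the plus strand at chr4:134314870-134315169, Klf15 on the plus strand at chr6:90462326-90462625 and Fbxo30 on the plus strand at chr10:11281337-11281636. In GENCODE M21 Fbxo30 starts earlier, at chr10:11281330, so its whole window lies inside the gene as annotated there.
Trim63: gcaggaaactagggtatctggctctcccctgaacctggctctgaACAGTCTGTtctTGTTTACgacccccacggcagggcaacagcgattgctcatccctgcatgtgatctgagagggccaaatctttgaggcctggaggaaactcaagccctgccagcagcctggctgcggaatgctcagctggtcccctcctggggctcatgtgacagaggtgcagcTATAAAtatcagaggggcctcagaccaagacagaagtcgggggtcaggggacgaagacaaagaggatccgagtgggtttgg
Klf15: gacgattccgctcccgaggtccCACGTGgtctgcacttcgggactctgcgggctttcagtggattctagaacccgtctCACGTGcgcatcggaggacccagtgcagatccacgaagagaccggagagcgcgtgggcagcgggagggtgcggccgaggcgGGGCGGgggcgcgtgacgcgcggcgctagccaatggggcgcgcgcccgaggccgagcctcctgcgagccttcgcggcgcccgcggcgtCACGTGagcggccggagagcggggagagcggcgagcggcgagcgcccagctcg
Fbxo30: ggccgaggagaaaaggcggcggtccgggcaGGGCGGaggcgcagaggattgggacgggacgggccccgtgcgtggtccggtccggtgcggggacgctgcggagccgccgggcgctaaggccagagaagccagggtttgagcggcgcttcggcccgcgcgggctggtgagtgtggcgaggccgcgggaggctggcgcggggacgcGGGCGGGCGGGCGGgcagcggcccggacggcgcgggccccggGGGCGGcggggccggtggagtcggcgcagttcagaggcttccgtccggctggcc
The motifs were the FoxO element GTAAACA, found in 3.65% of 32851 mouse promoters of this length, the insulin response element CAAAACA (6.28%), the ATF composite site TGATGNAA (3.97%), a glucocorticoid response element written as ACANNNTGT (6.85%), the GC box GGGCGG (35.7%), the E-box CACGTG (7.15%) and the TATA box TATAAA (13.6%). The Trim63 window held 1 FoxO element, read on the opposite strand, with its first base at -194 from the annotated start. It also held 1 glucocorticoid response element with its first base at -206 and 1 TATA box with its first base at -31. The Klf15 window held 3 E-boxes, with first bases at -228, -172 and -3, and 1 GC box. The Fbxo30 window held 5 GC boxes, 3 of which overlapped one another, and its G and C bases made up 79.7% of the window, against 57% for Trim63 and 73.3% for Klf15. The windows of Foxo1, Foxo3 and Fbxo21 held 5, 5 and 3 GC boxes and none of the other 6 motifs. Promoters were matched for 6 of the 9 genes, and those of Fbxo32, Foxo4 and Foxo6 were not available to be searched. A match describes letters in this window only.

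QuantSeq libraries are primed from the poly(A) tail, so a transcript yields about 1 fragment near its 3′ end and the count of a gene does not grow with transcript length. The authors deposited reads counted per Ensembl gene, with 13983725 to 18751780 counts per BAM15 library and 15299135 to 18866728 per vehicle library. Values below are normalized counts, that is, counts scaled by the TMM factor to a common library size, as mean ± SD of 6 libraries. Each gene was tested for a difference between conditions by the quasi-likelihood method of edgeR, with Benjamini-Hochberg adjustment across the 12730 genes that passed a filter on low counts. Differential expression was called at an adjusted p below 0.01, and the study's full criterion adds a mean count above 50 and a change above 2-fold. The BAM15 libraries numbered 4 to 6 stood apart from those numbered 1 to 3, with 24.2% of tested genes differing between them at an adjusted p below 0.01, whereas 0 genes differed between the vehicle libraries with these numbers at that threshold by edgeR and 696 had an unadjusted p below 0.05. The labels name no batch for this split. It was chosen because an earlier reading of these data had shown it, so comparisons across it are descriptions. Values within each range of numbers are given for the FoxO factors, the ligases and Klf15. Markers of myotubes were abundant in all libraries, with summed levels of 28850 to 35150 CPM (counts scaled to a common total) with BAM15 and 31890 to 36150 with vehicle. Of 14 such markers 2 were higher and 5 lower, where 22.0% of all tested genes were higher and 20.3% lower. Of the 7 markers of undifferentiated myoblasts, Myf5 was higher and Pax7 lower, and their sum was 66.4 to 140.2 CPM with BAM15 and 83.1 to 106.1 with vehicle. Of the adipocyte markers Fabp4 never exceeded 3 counts in a library and the other 3 were not in the table, nor were any of the 4 endothelial and blood cell markers. In bulk RNA, a change in the number of nuclei or cells that express a gene and a change in RNA per cell cannot be told apart.

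All 9 genes were tested, but Klf15 passed the filter on low counts only through the BAM15 libraries and is described by its counts. Of the other 8 genes, 6 passed the adjusted p threshold, with Foxo3, Trim63 and Fbxo30 higher with BAM15 and Foxo1, Foxo6 and Fbxo21 lower. Of all genes tested, 42.3% passed this threshold in either direction, 22.0% higher and 20.3% lower, and the counts of the FoxO factors, the ligases and the lists are to be read against these shares. The full criterion was met by Foxo6 alone, against 7.28% of tested genes. The 2 groups of libraries did not overlap for the same 6 of 8 genes, a pattern seen in 34.2% of tested genes. The median log2 fold change of the 9 genes was 0.20, and that of all tested genes was 0.02. Of the same 8 genes, Fbxo32 also passed with library numbers 1 to 3 alone, and Foxo3 no longer passed with numbers 4 to 6 alone. The share of all tested genes that passed within each range was not computed.

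**Figure D1:**
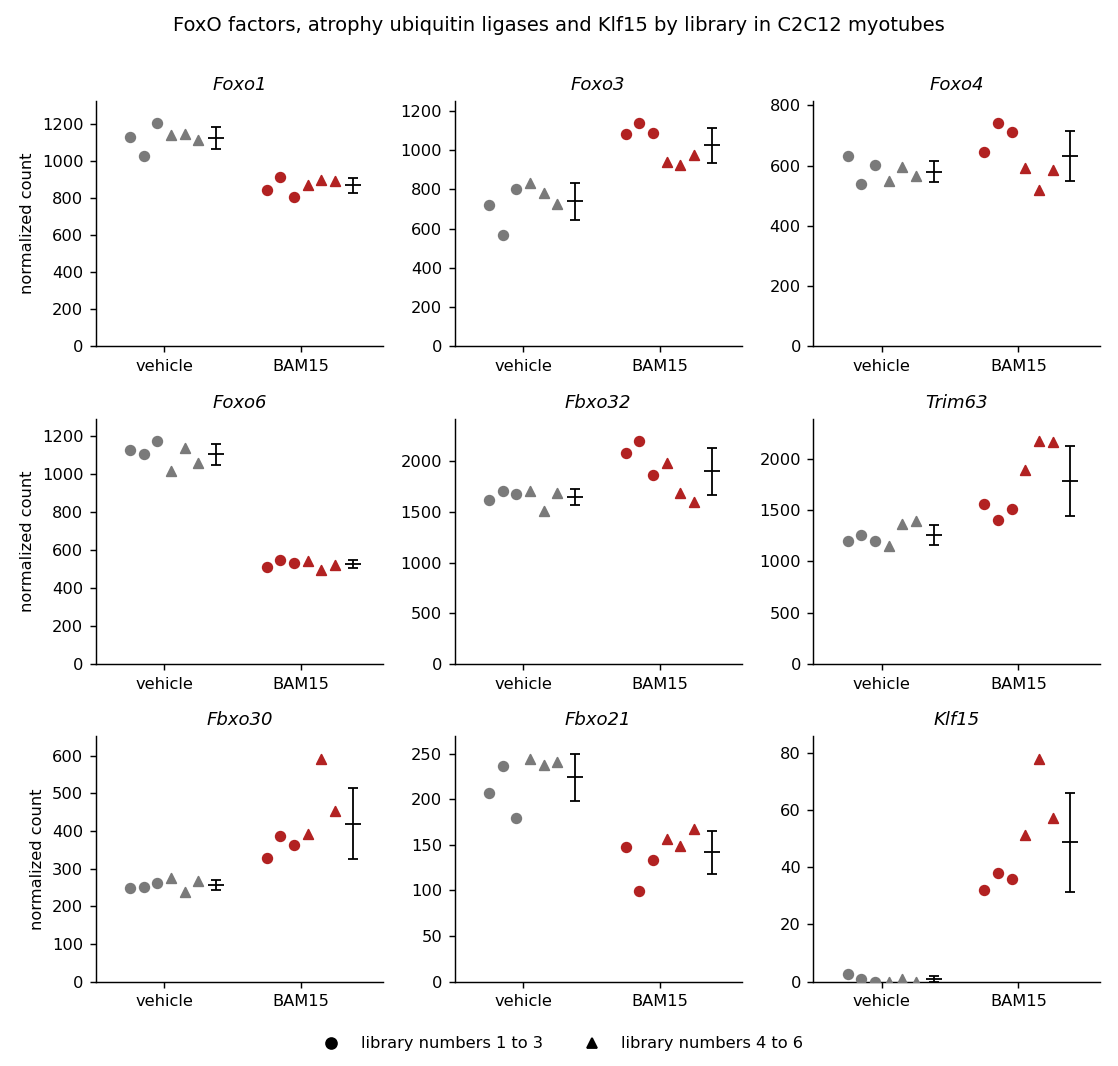
Normalized count (y axis, from 0) of each gene in 6 vehicle libraries (grey) and 6 BAM15 libraries (red), with circles for library numbers 1 to 3, triangles for 4 to 6, and black marks for mean ± SD. Foxo6 with BAM15 lies between 493.8 and 547.7, below every vehicle library, while Foxo4 and Fbxo32 overlap between conditions.

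The FoxO factors split by gene. Foxo6 (chr4:120267079-120287349, minus strand, GRCm38), a FoxO factor known mainly from brain and also expressed in oxidative muscle, had the largest decrease of the 4. Its normalized count was 1127, 1106, 1175, 1016, 1140 and 1060 in vehicle libraries 1 to 6 and 512.6, 547.7, 533.1, 541.5, 493.8 and 524.1 in BAM15 libraries 1 to 6. Every BAM15 library was below every vehicle library, and the BAM15 libraries lay within a narrow band. The mean fell from 1104 ± 57.5 to 525.5 ± 19.9, a log2 fold change of -1.07 (SE 0.05) with an adjusted p of 3.21e-10 by edgeR. The log2 fold change was -1.10 in numbers 1 to 3 and -1.06 in numbers 4 to 6, and the difference between the ranges was 0.05 (SE 0.11).

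Foxo1 (chr3:52268336-52353221, plus strand), the FoxO factor that in muscle restrains mass and promotes the fasting program, also fell. Vehicle libraries held 1130, 1023, 1201, 1136, 1143 and 1109 normalized counts, and BAM15 libraries held 844.6, 909.6, 802, 867.2, 893.8 and 889.4. The groups did not overlap, and the mean fell from 1124 ± 58.1 to 867.8 ± 39.4, a fitted ratio of 0.77. The log2 fold change was -0.37 (SE 0.05; edgeR, adjusted p = 3.09e-05), and it was -0.40 in numbers 1 to 3 and -0.36 in numbers 4 to 6. Of 351 windows of 50 bases in the last 400 bases of the transcript, 9 were shared with other genes.

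Foxo3 (chr10:42181841-42276755, minus strand), the factor best known for driving atrogin-1 and autophagy genes in wasting muscle, moved the other way. Vehicle libraries held 718.5, 568, 801.8, 833.5, 781.5 and 725.8 normalized counts, and BAM15 libraries held 1082, 1135, 1085, 937.7, 924.7 and 974.6. All BAM15 libraries were above all vehicle libraries, with libraries 1 to 3 above libraries 4 to 6. The mean rose from 738.2 ± 94.4 to 1023 ± 88.6, which was 1.39-fold (log2 fold change 0.47, SE 0.09; edgeR, adjusted p = 0.000351). Within numbers 1 to 3 the log2 fold change was 0.65 (edgeR, adjusted p = 3.39e-05), whereas within numbers 4 to 6 it was 0.27 and did not pass (edgeR, adjusted p = 0.0249). The difference between the ranges was -0.38 (SE 0.14) on the log2 scale and did not pass either (edgeR, adjusted p = 0.103).

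Foxo4 (chrX:101254528-101260873, plus strand), the shortest gene of the 4 and one that AKT also controls, did not pass the test. The vehicle libraries ranged from 538.2 to 631.3 normalized counts with a median of 580.3, and the BAM15 libraries from 518.2 to 740 with a median of 618.2. The ranges overlapped, with 5 of 6 BAM15 libraries above the vehicle mean. The log2 fold change was 0.12 (SE 0.08; edgeR, adjusted p = 0.236). It was 0.24 in numbers 1 to 3 and -0.02 in numbers 4 to 6, so that its sign depended on which libraries were used.

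The changes in opposite directions altered the make-up of the FoxO transcripts. The 4 genes together held 3546 ± 186.7 normalized counts with vehicle (3236 to 3779) and 3048 ± 175.5 with BAM15 (2831 to 3333), with overlapping ranges. Foxo6 accounted for 31.2% ± 1.75 of this sum with vehicle and 17.3% ± 0.73 with BAM15. Foxo3 accounted for 20.8% ± 1.98 with vehicle and 33.5% ± 1.27 with BAM15. The ranges of both shares did not overlap between conditions. Foxo1 changed least as a share, from 31.7% ± 0.36 to 28.6% ± 2.17, with overlapping ranges. Foxo4 held 16.4% ± 0.67 with vehicle and 20.7% ± 1.63 with BAM15. Its ranges, 15.55% to 17.5% and 18.31% to 22.7%, did not overlap either. In every vehicle library Foxo1 had more counts than Foxo3, with a Foxo3 to Foxo1 ratio of 0.56 to 0.73, and in every BAM15 library Foxo3 had more, with a ratio of 1.03 to 1.35. The ratio of Foxo6 to Foxo1 was 0.90 to 1.08 with vehicle and 0.55 to 0.66 with BAM15. These shares compare counts at the 3′ ends of different genes, and how efficiently each end was captured is not known.

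**Figure D2:**
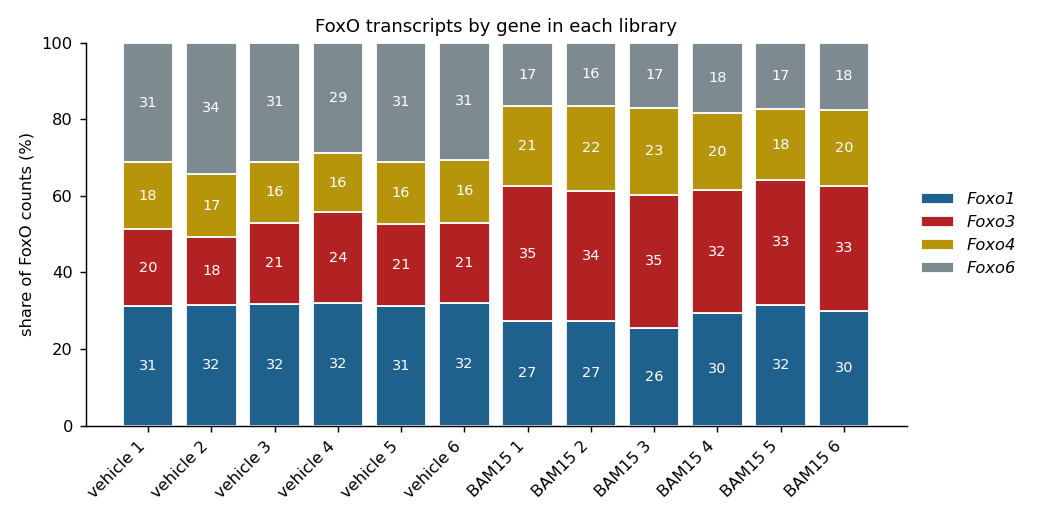
Share of the summed normalized counts of Foxo1, Foxo3, Foxo4 and Foxo6 (y axis, percent) in each of the 12 libraries (x axis), with the rounded share written in each segment. In all 6 BAM15 libraries the Foxo6 segment is smaller, and the Foxo3 segment larger, than in any vehicle library.

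The ubiquitin ligases also did not move as 1 group. Fbxo32 (chr15:58175879-58214932, minus strand) encodes the F-box protein atrogin-1, which targets MyoD and the translation factor eIF3f. It had the highest mean of the 9 genes in both conditions. Vehicle libraries held 1617, 1709, 1678, 1703, 1503 and 1688 normalized counts, and BAM15 libraries held 2083, 2198, 1860, 1980, 1684 and 1593. BAM15 libraries 1 to 4 lay above all vehicle libraries, and libraries 5 and 6 lay among them. The means were 1650 ± 79.0 and 1900 ± 233, a log2 fold change of 0.20 (SE 0.08) that did not pass (edgeR, adjusted p = 0.0332). It passed when BAM15 library 6 was left out, at 0.25 (edgeR, adjusted p = 0.00683). Within numbers 1 to 3 it was 0.29 and passed (edgeR, adjusted p = 0.000966), within numbers 4 to 6 it was 0.09 (edgeR, adjusted p = 0.438), and the difference between the ranges did not pass (-0.19, SE 0.12; edgeR, adjusted p = 0.323).

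Trim63 (chr4:134315120-134329629, plus strand) encodes MuRF1, a RING finger ligase bound to the sarcomere that targets myosin heavy chain and other thick filament proteins. Its promoter window was the only one of the 6 with a FoxO element, and that of Fbxo32 was not searched. Vehicle libraries held 1194, 1253, 1197, 1153, 1368 and 1390 normalized counts, and BAM15 libraries held 1560, 1404, 1514, 1890, 2173 and 2162. The groups did not overlap, but BAM15 library 2 was only slightly above the highest vehicle library. The mean rose from 1259 ± 98.4 to 1784 ± 338.5, which was 1.42-fold (log2 fold change 0.50, SE 0.11; edgeR, adjusted p = 0.0011). Here the BAM15 libraries 4 to 6 were the high ones, with a log2 difference of 0.48 from libraries 1 to 3 (edgeR, adjusted p = 0.000351). Trim63 was the only 1 of the 9 genes to pass that comparison, against 24.2% of tested genes, and the split itself was chosen from these data. The response was 0.29 in numbers 1 to 3 (edgeR, adjusted p = 0.000608) and 0.66 in numbers 4 to 6 (edgeR, adjusted p = 9.22e-05), passing in both. The difference of the responses was 0.37 (SE 0.11) and did not pass (edgeR, adjusted p = 0.0669), although it did when BAM15 library 4 was left out (edgeR, adjusted p = 0.00912). In that comparison of responses 0 of the 9 genes and 0% of the 12730 tested genes passed by edgeR and by limma-voom. At an adjusted p below 0.05 there were 339 genes by edgeR and 0 by limma-voom. An unadjusted p below 0.05 was found for 3313 of the 12730 genes by edgeR, among them Foxo3, Trim63 and Fbxo30. By limma-voom it was found for 3270, among them Foxo3 and Trim63.

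Fbxo32 and Trim63 therefore ranked differently among the BAM15 libraries. The ratio of Trim63 to Fbxo32 was 0.68 to 0.91 over the vehicle libraries, and 0.75, 0.64, 0.81, 0.95, 1.29 and 1.36 in BAM15 libraries 1 to 6. Trim63 exceeded Fbxo32 in BAM15 libraries 5 and 6 and in no other library. What made the libraries differ was not tested.

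Fbxo30 (chr10:11281330-11298052, plus strand) encodes MUSA1, an F-box protein that BMP signaling restrains and that is induced in denervated muscle. Vehicle libraries held 249.2, 252.1, 260.9, 273.9, 237.1 and 267.5 normalized counts, and BAM15 libraries held 327.2, 385.7, 362.9, 392, 592.4 and 452.9. The groups did not overlap, and the vehicle libraries were much closer to one another than the BAM15 libraries, of which library 5 was highest. The mean rose from 256.8 ± 13.4 to 418.8 ± 94.5, which was 1.63-fold (log2 fold change 0.71, SE 0.12; edgeR, adjusted p = 0.000162). It was the largest increase among the ligases, at 0.49 in numbers 1 to 3 and 0.88 in numbers 4 to 6, both of which passed.

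Fbxo21 (chr5:117976730-118010201, plus strand) encodes SMART, an F-box protein that was linked to denervation atrophy, and it was the only one of the 4 ligases to fall. Vehicle libraries held 206.9, 236.1, 179.7, 244.7, 237.1 and 241.3 normalized counts, and BAM15 libraries held 147.6, 99.4, 133.5, 155.9, 148.3 and 166.9. Every BAM15 library was below every vehicle library, with the narrowest gap between BAM15 library 6 and vehicle library 3. The mean fell from 224.3 ± 25.7 to 141.9 ± 23.6, which was 0.63-fold (log2 fold change -0.66, SE 0.12; edgeR, adjusted p = 0.000261). It fell by 0.71 on the log2 scale in numbers 1 to 3 and by 0.63 in numbers 4 to 6, and the difference between them did not pass (edgeR, adjusted p = 0.823).

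**Figure D3:**
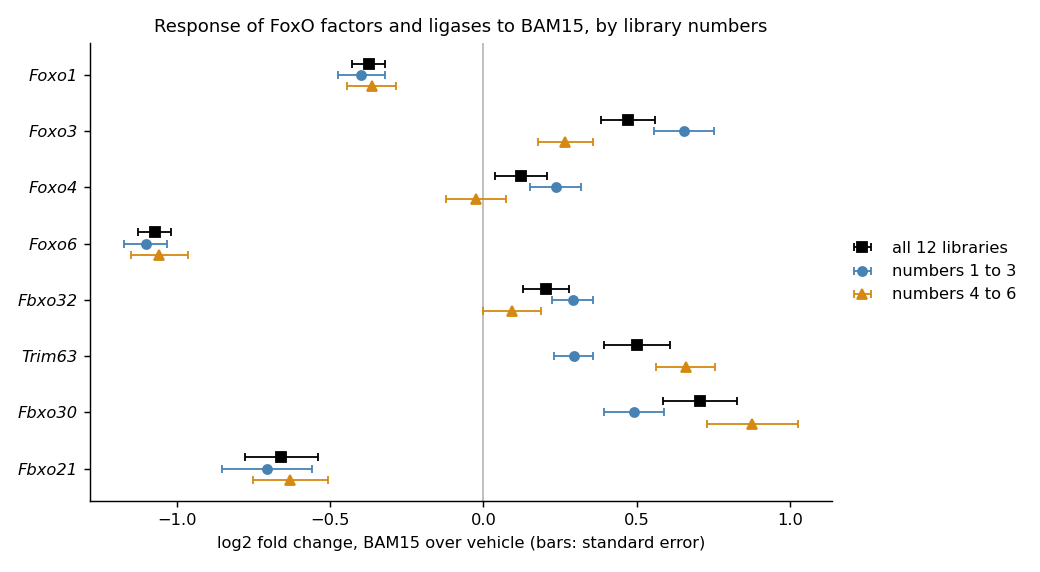
Log2 fold change of BAM15 over vehicle (x axis) with its standard error for the FoxO factors and the ligases (y axis), from all 12 libraries (black squares), library numbers 1 to 3 (blue circles) and numbers 4 to 6 (orange triangles). Foxo1, Foxo6 and Fbxo21 have close values in both ranges, Foxo3, Foxo4 and Fbxo32 are lower in numbers 4 to 6, and Trim63 and Fbxo30 are higher there, although no difference between ranges passed the test.

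Klf15 (chr6:90462576-90475238, plus strand) was nearly undetected without BAM15. Vehicle libraries 1 to 6 held 3, 1, 0, 0, 1 and 0 raw counts and BAM15 libraries held 33, 35, 38, 48, 83 and 49. Every BAM15 library was above every vehicle library, and BAM15 library 5 was the highest. Over all libraries 286 counts stood against 5, a ratio of 59.6 after scaling, with an exact 95% interval of 25.2 to 184.9 that covers counting error only. The ratio was 27.4 (10.4 to 102.4) in numbers 1 to 3, from 106 and 4 counts, and 188.9 (33.5 to 7504) in numbers 4 to 6, from 180 counts and 1 count, so these intervals overlapped. Vehicle library 1 held 3 of the 5 vehicle counts, and without it the ratio was 121.3 (33.3 to 1007). No test is given for Klf15, and its mean of 24.7 normalized counts over the 12 libraries was below the count minimum of the full criterion. With BAM15 it remained the lowest of the 9 genes, at 48.7 ± 17.3 normalized counts.

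Ranked by normalized count, the order in vehicle was Fbxo32, Trim63, Foxo1, Foxo6, Foxo3, Foxo4, Fbxo30, Fbxo21 and Klf15. The neighbours Trim63 and Foxo1, Foxo1 and Foxo6, Foxo3 and Foxo4, and Fbxo30 and Fbxo21 overlapped in their ranges. With BAM15 the order was Fbxo32, Trim63, Foxo3, Foxo1, Foxo4, Foxo6, Fbxo30, Fbxo21 and Klf15, so that Foxo6 fell from the fourth to the sixth place and Foxo3 rose from the fifth to the third. Here Fbxo32 and Trim63, Foxo4 and Foxo6, and Foxo6 and Fbxo30 overlapped. Since each transcript gives about 1 fragment whatever its length, no division by length was made.

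Over the 12 libraries, the genes whose log2 CPM followed each of the 8 genes other than Klf15 most closely were found among 10469 genes. For Foxo6 they included Selenoh and Acat2 (Pearson r = 0.9975 and 0.9972, n = 12 libraries), and for Foxo1 Parm1, Gm17455 and Cd24a (r = 0.98, 0.97 and 0.97). For Foxo3 they included Zswim6 and Comtd1 (r = 0.98 and 0.97), and for Foxo4 Tnip1, B9d2 and Xpo7 (r = 0.95 each). For Fbxo32 they were Sestd1, Golga4 and Rrbp1 (r = 0.97 each), and for Trim63 Rpp38, Pdia5 and Rpl23 (r = 0.98 each). For Fbxo30 they were Cnbp, Mtpap and Yrdc (r = 0.98 each), and for Fbxo21 Chst12, Loxl3 and Gins2 (r = 0.97, 0.97 and 0.96). Trim63 and Fbxo32 were at r = 0.10 over all libraries and at -0.79 once the mean of each condition was removed, whereas Trim63 and Fbxo30 were at 0.89 and 0.67. These values are descriptions, since the libraries share the treatment contrast and the split between numbers 1 to 3 and 4 to 6.

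The genes around the FoxO factors were described by lists. Of 28 FoxO targets other than ligases, 12 were higher, 2 were lower and 14 did not pass, where 22.0% of all tested genes were higher and 20.3% lower. The full criterion was met by 7 of the 28, all of them higher, against 7.28% of all tested genes in either direction. The median log2 fold change of the list was 0.22. The largest increases were those of Gadd45a, a stress-induced gene that promotes myofiber atrophy (2017 ± 342.3 to 9163 ± 3654 normalized counts, log2 fold change 2.18, SE 0.24; edgeR, adjusted p = 8.34e-06), and Bcl2l11, which encodes the pro-apoptotic protein BIM (196.5 ± 17.8 to 843.8 ± 26.1, log2 fold change 2.10, SE 0.07; edgeR, adjusted p = 2.06e-12). Eif4ebp1, which encodes the translation repressor 4E-BP1, rose with a log2 fold change of 1.81, and Bbc3, which encodes the pro-apoptotic protein PUMA, with one of 1.71. For all 4 the libraries did not overlap between conditions. Gadd45a held 7024, 5443, 6150, 9522, 14620 and 12220 normalized counts in BAM15 libraries 1 to 6, with libraries 4 to 6 above 1 to 3, and 1518 to 2399 in the vehicle libraries. Of these targets 16 passed in numbers 1 to 3 and 10 in numbers 4 to 6. The share of all tested genes that passed within each range was not computed, so these 2 counts do not show a difference particular to the targets.

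Of 26 kinases, acetylases, deacetylases, 14-3-3 proteins and other cofactors of the FoxO factors, 5 were higher, 7 were lower and 14 did not pass, a share close to the 42.3% of all tested genes, with a median of -0.01 and 0 meeting the full criterion. Sgk1, a kinase that phosphorylates FoxO3 as AKT does, rose with a log2 fold change of 0.90 (SE 0.09; edgeR, adjusted p = 7.32e-07). Xpo1, the exportin that carries FoxO proteins out of the nucleus, rose by 0.68. The acetyltransferase Kat2b (PCAF) fell by 0.78 on the log2 scale, and Ywhah, a 14-3-3 protein of the family that retains phosphorylated FoxO in the cytosol, fell by 0.69.

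The F-box ligases act through a shared machinery. Of 23 genes for SCF subunits, ubiquitin, its conjugating enzymes and related proteins, 8 were higher, 5 were lower and 10 did not pass, against 42.3% of all tested genes that passed, with a median of 0.09 and 0 past the full criterion. Skp1a, the adaptor that joins an F-box protein to the cullin, fell from 5561 ± 244.2 to 3421 ± 250.1 normalized counts (log2 fold change -0.70, SE 0.06; edgeR, adjusted p = 7.44e-08). Ubb, a polyubiquitin gene, rose by 0.65 on the log2 scale, although 64.7% of the windows at the 3′ end of Ubb are shared with pseudogenes. The deubiquitinase gene Usp2 rose from 855.7 ± 45.9 to 1694 ± 120 (log2 fold change 0.98, SE 0.06; edgeR, adjusted p = 2.56e-09), just under the 2-fold limit.

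Of 16 other ubiquitin ligases linked to muscle wasting, 4 were higher, 3 were lower and 9 did not pass, a share close to the 42.3% of all tested genes, and none met the full criterion. Their median log2 fold change was 0.03. Asb2, a muscle ligase that targets filamin, fell by 0.91 on the log2 scale (edgeR, adjusted p = 1.19e-06). Trim55, which encodes the MuRF1 relative MuRF2, fell by 0.63, and Fbxo40, a muscle F-box gene for a ligase of IRS1, fell by 0.50. Ubr2, an N-end rule ligase, rose by 0.55, with overlapping groups.

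Among 14 genes for the glucocorticoid receptor, the enzyme that makes its ligand and its target genes, 13 were tested, of which 7 were higher, 2 were lower and 4 did not pass, where 22.0% of all tested genes were higher and 20.3% lower. The median was 0.60, and 3 higher genes and 1 lower gene met the full criterion. Per1, a clock gene, rose from 81.3 ± 5.87 to 446.2 ± 32.5 normalized counts (log2 fold change 2.46, SE 0.08; edgeR, adjusted p = 2.04e-12), Mt2, a metallothionein, rose by 2.94, and Cebpb, a bZIP transcription factor, rose by 1.65. The last 400 bases of Mt2 overlap another annotated gene, Gm45774, over 244 bases on the opposite strand, and the strand used for counting is not given in the sources used here. Hsd11b1, whose enzyme regenerates active glucocorticoid, fell by 1.08 (edgeR, adjusted p = 1.18e-05). Fkbp5 and Tsc22d3, targets often used to read receptor activity, did not pass, with log2 fold changes of -0.22 (edgeR, adjusted p = 0.287) and 0.19 (edgeR, adjusted p = 0.0363). These 2 were named after their values were seen. So were the receptor gene Nr3c1, Ddit4 and Cebpd, which are among the 7 higher genes and rose by 0.60, 0.65 and 0.54. Receptor activity was not tested.

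For amino acid catabolism linked to KLF15, 8 of 10 genes were in the table and tested, with 3 higher, 1 lower and 4 that did not pass, against 42.3% of all tested genes that passed. The median was 0.26, and 1 gene met the full criterion. That gene, Gpt2, which encodes mitochondrial alanine aminotransferase, rose from 723.6 ± 44.7 to 2471 ± 106.1 normalized counts (log2 fold change 1.77, SE 0.06; edgeR, adjusted p = 1.59e-12), whereas Gpt, for the cytosolic enzyme, fell by 0.38. Prodh, for proline dehydrogenase, rose from 6.09 ± 2.37 to 26.9 ± 6.98 normalized counts, below the count minimum. Like Klf15, it passed the filter on low counts only through the BAM15 libraries, so its place among the 3 higher genes is not read as a test result. Bcat2, for the mitochondrial branched-chain aminotransferase, rose by 0.34.

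Of 14 atrophy regulators other than FoxO, 12 were tested, with 4 higher, 3 lower and 5 that did not pass, against 42.3% of all tested genes that passed, and a median of 0.02, close to that of all tested genes. The full criterion was met by 3 of the 12, all of them higher, against 7.28% of all tested genes in either direction. Besides Gadd45a, which is also in the list of FoxO targets, Atf4 rose from 9573 ± 706.1 to 41060 ± 6960 normalized counts (log2 fold change 2.10, SE 0.10; edgeR, adjusted p = 2.97e-10). Atf4 encodes the transcription factor of the integrated stress response, and in muscle it acts upstream of Gadd45a. Hdac4, a deacetylase that rises after denervation, rose by 1.22, and Smad3, which transmits myostatin signals, fell by 0.95.

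The list of muscle proteins that the ligases degrade describes mRNA here and not protein. Of 18 genes, 2 were higher, 4 were lower and 12 did not pass, against 42.3% of all tested genes that passed, with a median of -0.17. The count of 6 that passed ranged from 4 to 11 over 26 alternative analyses. It was 10 with limma on the deposited signal and 11 at an adjusted p below 0.05. The share of all tested genes that passed in those settings was not computed. Myod1, whose protein is a target of atrogin-1, fell from 1229 ± 39.2 to 600.6 ± 63.0 normalized counts (log2 fold change -1.03, SE 0.07; edgeR, adjusted p = 6.48e-09) and was the only one to meet the full criterion. Eif3f, for the other well-known target of atrogin-1, rose by 0.30, with overlapping groups. Mybpc2, for a myosin-binding protein of fast fibers, fell by 0.57, and its 3′ end overlaps Gm44646 on the opposite strand over 192 bases. Acta1, for skeletal actin, rose by 0.46.

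**Figure D4:**
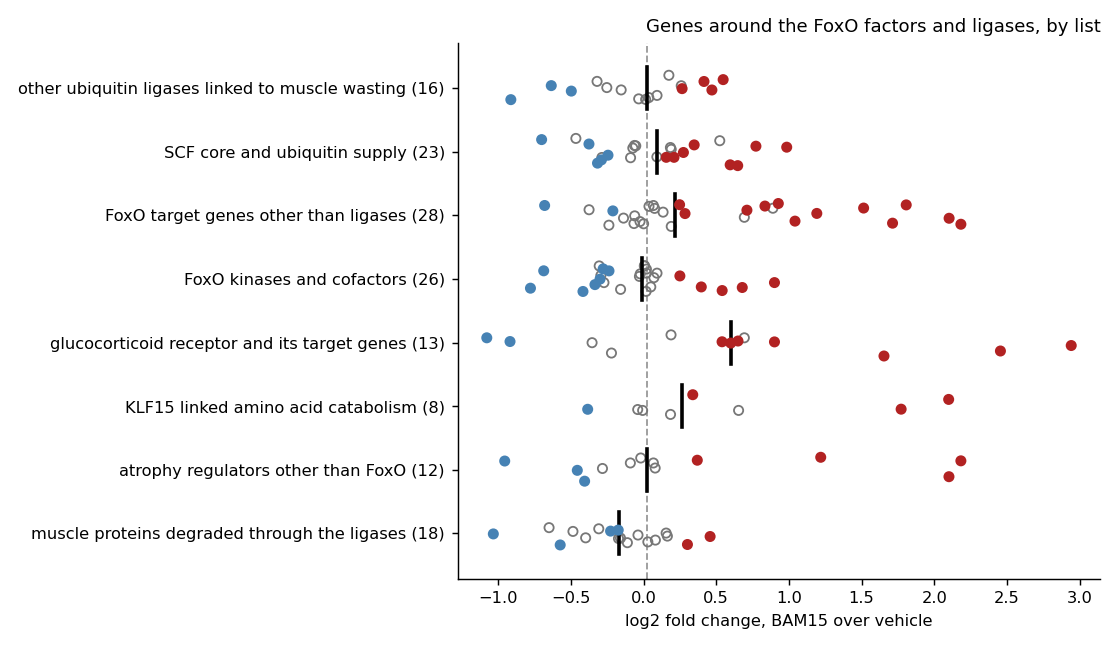
Log2 fold change of BAM15 over vehicle (x axis) for each tested gene of 8 lists (y axis, number tested in parentheses), filled red where higher and blue where lower at an adjusted p below 0.01 and open grey otherwise. Black bars mark list medians, from -0.17 for muscle proteins to 0.60 for the glucocorticoid list, and the dashed line marks the median of all tested genes at 0.02.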

How the data were processed

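RNA of C2C12 myotubes was converted to 3′ QuantSeq libraries, forward-sequenced and aligned with BlueBee software by the authors. The deposited counts give, for each Ensembl gene, how many reads fell on it, and they were not normalized. The authors' processing notes name GRCm38 and DESeq2 1.22.2, while the aligner, annotation and strand of counting are not given in the sources used here. The authors also deposited a normalized signal, which is the counts divided by 1 DESeq2 size factor per library (0.836 to 1.069), and it served for 1 alternative. The tables hold 11 columns of other samples, which were not used.

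Counts of the 12 libraries were analysed in R 4.3.3 with edgeR 4.0.16. The filter filterByExpr removed 2383 of 15113 genes, TMM factors were computed, and a robust quasi-likelihood model with condition as its only term was fitted, with Benjamini-Hochberg adjustment over 12730 genes. Standard errors are the size of the log2 fold change divided by the square root of F. Thresholds followed the study's methods, at an adjusted p below 0.01, a mean count above 50 and a change above 2-fold. A difference between responses was tested as an interaction of condition with library numbers 4 to 6 against 1 to 3. All 9 genes passed the filter, so no permutation test was needed. No library was a copy of another, since the chi-square per gene between libraries of one condition was 4.72 or more in each pair. Tests were checked on simulated data.

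The genes and lists were chosen with earlier results of these data known. Each library value is given for the 9 genes, and up to 4 genes per list are named, by the largest change among those past the thresholds, filled up from those past the p threshold. A few genes chosen in this way are not reported here. Positions are from GENCODE M21 (GRCm38), in which 15080 identifiers were found, and promoters from RefSeq. Alternatives used DESeq2 1.42.0, limma 3.58.1 (voom, and log2 of signal plus 1), other scalings and filters, blocks, leaving out each library, each range of numbers alone and an adjusted p below 0.05. Figures were drawn with matplotlib 3.10.9 in Python 3.11.15.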

Additional observations from a re-analysis of the deposited data

How the results depend on the processing

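Over 26 alternatives the number of genes past the full criterion was 903 to 1046, against 927, and the number of the 9 genes past the adjusted p threshold was 6 to 8, against 7. The second number counts Klf15 wherever it was tested, although in the main fit it passed the filter on low counts only through the BAM15 libraries. Foxo1, Foxo6, Trim63, Fbxo30 and Fbxo21 kept their direction and their call in all 26, with adjusted p-values up to 0.00235, 8.79e-07, 0.00978, 0.00103 and 0.000897 (edgeR, DESeq2 or limma). Klf15 was higher in the 25 alternatives that kept it, and the one with at least 10 counts in every library removed it. It held 5 counts over all vehicle libraries, so its calls are not read as support. Foxo3 no longer passed with library numbers 4 to 6 alone (0.27, edgeR, adjusted p = 0.0249), and Foxo4 reversed there (-0.0242, edgeR, adjusted p = 0.856). Fbxo32 passed with numbers 1 to 3 alone (0.29, adjusted p = 0.000966), without BAM15 replicate 6 (0.25, adjusted p = 0.00683) and at a threshold of 0.05, and its adjusted p ranged from 0.000966 to 0.438 by edgeR, DESeq2 or limma. The number of the 9 genes whose response differed between library numbers was 0, and 0 to 1 when each library was left out in turn. Without BAM15 replicate 4 it was 1, which was Trim63 (edgeR, adjusted p = 0.00912), whose adjusted p was at most 0.182 over the alternatives. Of the muscle proteins 6 passed, and 4 to 11 did over the alternatives, with 4 to 8 when each library was left out in turn. The number was 10 with limma on the deposited signal and 11 at a threshold of 0.05. The share of all tested genes that passed the p threshold in these settings was not computed. Other scalings moved the median log2 fold change of all genes by at most 0.06. The cause of these changes was not tested. The library numbers of the 2 conditions are the same, but the correlation of deviations between libraries of one number was 0.32, 0.05, 0.53, 0.31, -0.09 and 0.42, so that not every number pairs its libraries. BAM15 libraries 1, 2 and 3 all correlated best with vehicle library 3, and libraries 4, 5 and 6 all with vehicle library 6. With the replicate block 933 genes passed the full criterion. The p threshold was passed there by 7 of the 9 genes, a count that includes Klf15, whose call is not read as a test result. The depth limits Klf15, whose vehicle libraries held at most 3 counts each.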

Other observations

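Within the FoxO targets, the genes of autophagy and the lysosome did not move together. They were picked out after their values were seen. Ctsl, which encodes the lysosomal protease cathepsin L, rose from 5067 ± 372.7 to 14470 ± 5325 normalized counts (log2 fold change 1.51, SE 0.20; edgeR, adjusted p = 2.81e-05). It held 11110, 9022, 11130, 13950, 22960 and 18640 in BAM15 libraries 1 to 6, with libraries 4 to 6 above 1 to 3, and 4502 to 5494 in the vehicle libraries. Gabarapl1, for a member of the Atg8 family that coats autophagosomes, rose from 1631 ± 68.6 to 3357 ± 445 (log2 fold change 1.04, SE 0.08; edgeR, adjusted p = 3.46e-08). Map1lc3b, for LC3B of the same family, rose by 0.29 on the log2 scale, and its 3′ end overlaps Zcchc14 on the opposite strand over 58 bases. The mitophagy receptor gene Bnip3 fell by 0.68 (edgeR, adjusted p = 0.000113), but its 3′ end overlaps Gm45507 on the opposite strand over 272 bases. Ulk2, for a kinase that starts autophagy, fell by 0.21 with overlapping groups, and its relative Ulk1 was at -0.37 and did not pass (edgeR, adjusted p = 0.0459). Atg12, Becn1 and Pink1 had log2 fold changes of 0.13, 0.00 and -0.06 and did not pass either, and the 3′ end of Becn1 overlaps Cntd1 on the opposite strand over 297 bases.

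Foxo1 and Foxo6 held 1124 ± 58.1 and 1104 ± 57.5 normalized counts with vehicle (n = 6), with Foxo1 above Foxo6 in 5 of 6 libraries, and 867.8 ± 39.4 and 525.5 ± 19.9 with BAM15 (n = 6), with Foxo1 above Foxo6 in 6 of 6. Fbxo30 and Fbxo21, also neighbours in level and at 256.8 ± 13.4 and 224.3 ± 25.7 with vehicle, were at 418.8 ± 94.5 and 141.9 ± 23.6 with BAM15. Fbxo32 and Trim63 went the other way, from ranges that did not overlap with vehicle to ranges that did with BAM15.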
